A study of Mus musculus with 12 samples.

Results

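The AP-1 family examined here consisted of 8 genes, *Fos*, *Fosb*, *Fosl1*, *Fosl2*, *Jun*, *Junb*, *Jund* and *Batf*, taken by symbol from a count table of 16234 genes. All 8 passed the filter on low counts, which left 12208 genes for testing. RNA was sequenced from bone marrow-derived mast cells (BMMCs), which were grown from mouse femur and tibia marrow for 4 to 8 weeks with IL-3 and SCF (10 ng/ml each) until above 80% of the cells carried both CD117 and FcϵRI. The mice were on a C57BL/6N background, of both sexes and 6 to 12 weeks old, and carried a conventional *Elk4* knockout, which is present in every cell, on no allele (WT littermates), a single allele (HZ) or both alleles (KO). Each genotype was sequenced unstimulated (labelled untreated) and after IgE-DNP/HSA stimulation, in which cells received 0.5 µg/ml anti-DNP IgE overnight and 100 ng/ml DNP-HSA antigen for 1 h. This gave 6 groups of 2 libraries. The authors give these doses and times for their RT-qPCR assays, while their RNA-seq methods state none. Whether unstimulated cells had received IgE, and whether the 2 libraries of a group came from separate mice or cultures, is not stated in the labels. The p-values therefore measure only the spread between these samples, which may be technical, and genotype cannot be told apart from the culture or the animal.

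AP-1 is a dimeric transcription factor built from proteins with a basic leucine zipper, which grip DNA and each other through the same helix. The FOS proteins (FOS, FOSB, FOSL1 and FOSL2) dimerise with JUN proteins, whereas JUN, JUNB and JUND can also pair among themselves, and BATF joins JUN partners but lacks the activation domain of FOS. In mast cells, antigen that cross-links IgE on FcϵRI activates MAP kinases, which switch on *Fos* and other immediate early genes through ternary complex factors and SRF and also phosphorylate the AP-1 proteins already made. ELK4 is such a ternary complex factor, and the genotypes compare BMMCs in which its gene is intact or disrupted.

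The 12 libraries held 29697958 to 35531667 counts. *Elk4* itself gave 2426 and 2740 counts in unstimulated WT libraries, 3238 and 2837 counts in unstimulated HZ and 2613 and 2253 counts in unstimulated KO, and 1995 to 2322 in stimulated WT against 1867 and 1971 in stimulated KO libraries. Counts over the whole gene did not separate the genotypes at 2-fold and cannot show a deletion within the gene, so WT, HZ and KO stand below for libraries labelled in that way. Markers of mast cells were abundant, with 13 of 14 listed genes in the table and a summed level of 51087 to 62677 CPM per library, where CPM are counts scaled to library size with TMM factors. Summed basophil markers stood at 465 to 674 CPM, macrophage and monocyte markers at 36.4 to 71.4 CPM, and the 6 neutrophil and 2 lymphocyte markers in the table at no more than 0.269 and 0.0695 CPM. Such a sum can rest on a single gene of its list and does not measure a share of cells. Of erythroid and megakaryocyte genes, *Itga2b*, an integrin that immature mast cells also carry, stood at 1511 to 2420 CPM, while *Hbb-bs* was at 0 in both libraries of 5 of the 6 groups. *Hba-a1*, of the same list, held enough counts to be tested. It was at -3.57 ± 1.84 on the log2 scale in stimulated KO against WT (adjusted p = 0.094 in edgeR).

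Before stimulation, the family in WT cells was led by *Jund*, the JUN protein that most cells express constitutively. Levels of different genes were compared only as FPKM, which corrects for transcript length. *Jund* stood at 248 FPKM, *Junb* at 205, *Fosb* at 187, *Jun* at 149, *Fosl2* at 55.3, *Batf* at 37.8, *Fos* at 7.95 and *Fosl1* at 2.95 (means of 2 libraries), and no neighbours in this order overlapped between libraries. *Fos*, the prototype of the family, was thus among its least abundant members at rest. After stimulation the WT order became *Junb* at 1425 FPKM, *Fosb* at 661, *Jun* at 413, *Fosl2* at 261, *Jund* at 248, *Fos* at 233, *Batf* at 29.9 and *Fosl1* at 13.9, again without overlap between neighbours. The 8 genes together took 0.275% and 0.269% of all counts in unstimulated WT libraries and 0.941% and 0.966% in stimulated ones.

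The first question was which members responded to FcϵRI cross-linking in WT BMMCs. In WT cells 6 of the 8 members rose past an adjusted p of 0.05 and 2-fold (edgeR quasi-likelihood test, Benjamini-Hochberg over all genes tested), namely *Fos*, *Fosb*, *Fosl1*, *Fosl2*, *Jun* and *Junb*, against 3.71% of all tested genes that rose. *Fos* had the largest change and *Jun* the smallest of these 6. *Jund* passed the adjusted p at under 2-fold, with a sign that rested on the scaling, and *Batf* did not pass.

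*Fos*, which codes for the classical partner of JUN, gave 520 and 499 counts in unstimulated WT libraries and 15976 and 16313 in stimulated ones. That is 15.7 and 14.3 CPM against 538 and 548 CPM, a rise of 36.2-fold (log2 fold change 5.18 ± 0.05 SE, adjusted p = 3.52e-54, n = 2 libraries a group). The groups lay far apart, and the difference between the replicates was small beside the difference between groups. *Fosb*, whose protein binds the same sites as FOS, started much higher and went from 635 and 626 CPM to 2733 and 2794 CPM (2.13 ± 0.02, adjusted p = 4.72e-49). *Fosl2*, the gene of FRA2, went from 349 and 352 CPM to 2040 and 2045 CPM (2.54 ± 0.03, adjusted p = 4.76e-52). The gains were 2133 CPM for *Fosb*, 1692 CPM for *Fosl2* and 528 CPM for *Fos*, but CPM does not correct for transcript length. As FPKM, *Fosb* went from 187 to 661, *Fosl2* from 55.3 to 261 and *Fos* from 7.95 to 233 (means of 2 libraries). By that measure *Fosb* gained most, and the gain of *Fosl2* was not above that of *Fos*. *Fosl1*, the gene of FRA1, was rare throughout and went from 148 and 158 counts to 792 and 772 counts (2.55 ± 0.13, adjusted p = 1.47e-21).

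Among the JUN genes, *Junb* moved most. It rose from 343 and 332 CPM to 2823 and 2981 CPM, which is 8.59-fold (log2 fold change 3.10 ± 0.03, adjusted p = 7.43e-54). *Jun*, the founding JUN gene and a strong activator, rose from 429 and 420 CPM to 1447 and 1465 CPM, or 3.43-fold (1.78 ± 0.03, adjusted p = 1.33e-44). *Jund* stood at 658 and 616 CPM at rest and at 771 and 806 CPM after stimulation (0.31 ± 0.03, adjusted p = 1.90e-12). The sign of that small *Jund* change rested on the scaling: stimulated libraries had TMM factors of 0.902 to 0.924 and unstimulated ones 1.08 to 1.12, and with library totals alone the median of all genes moved by -0.31 in the WT response and *Jund* was at -0.00. *Batf*, known for pairing with JUN and IRF proteins in lymphocytes, was at 30.7 and 30.4 CPM at rest and at 27.9 and 31.8 CPM after stimulation (-0.03 ± 0.08, adjusted p = 0.761), so its groups overlapped. With library totals alone, *Batf* was at -0.34 in WT (adjusted p = 0.00011), -0.36 in HZ (adjusted p = 2.32e-05) and -0.39 in KO (adjusted p = 8.24e-06), where the median of all genes moved by -0.31, -0.23 and -0.29.

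**Figure D1:**
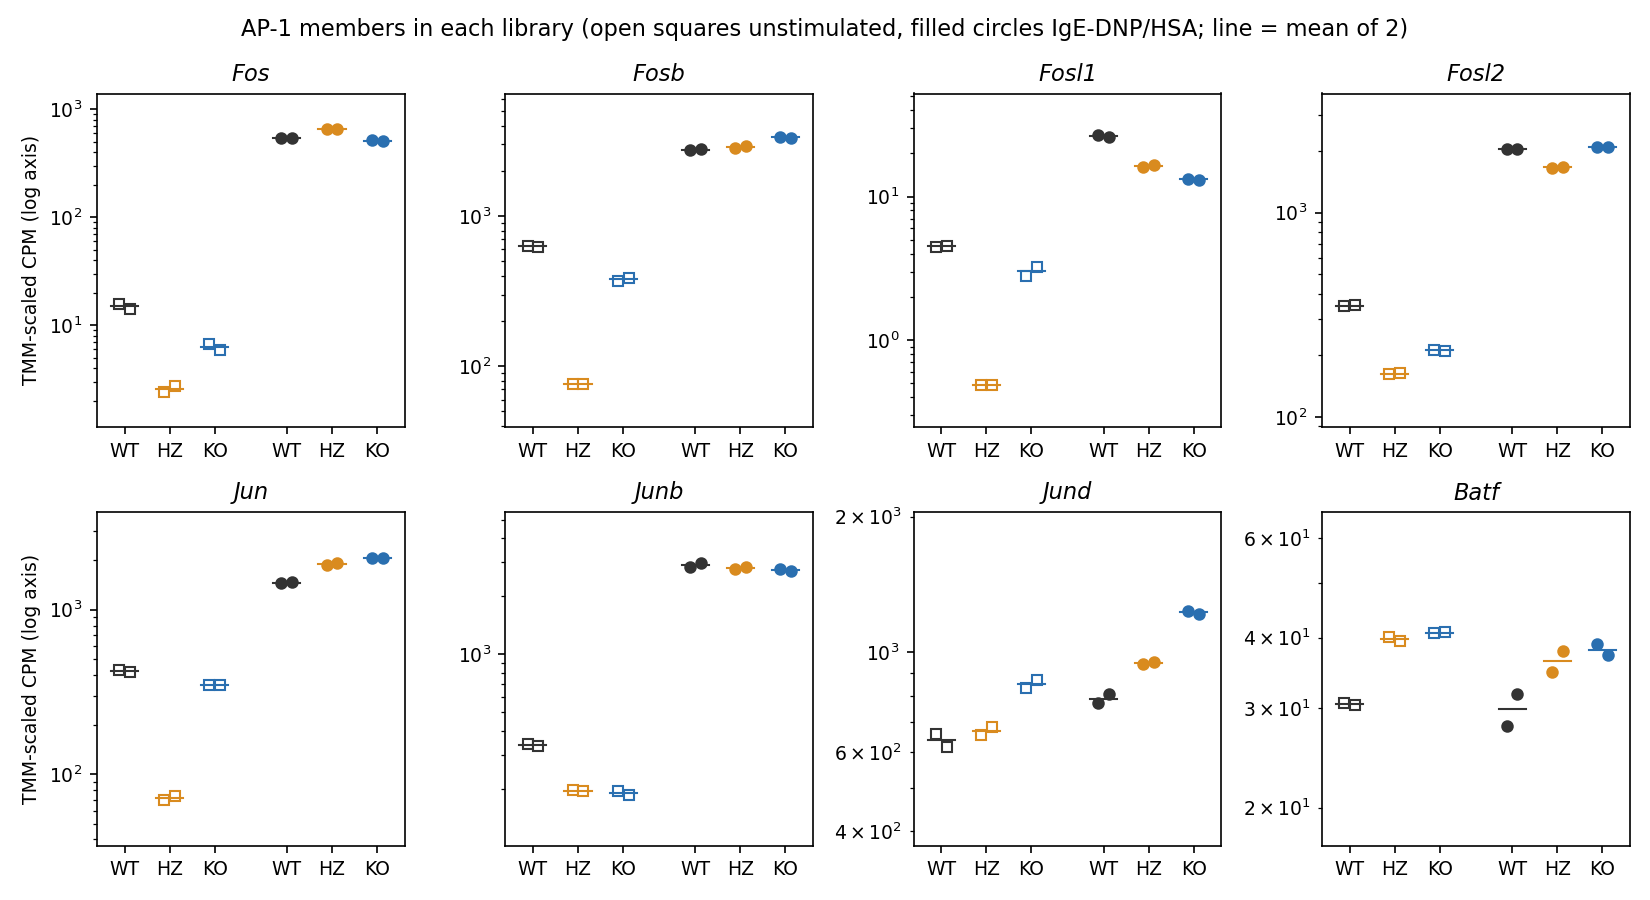
TMM-scaled CPM (log axis, each panel with its own range) of the 8 members in all 12 libraries, with open squares for unstimulated and filled circles for stimulated BMMCs, and lines at the mean of 2. The stimulated libraries of the 3 genotypes lie close together for most members, whereas the unstimulated HZ libraries lie far below WT for *Fos*, *Fosb*, *Fosl1* and *Jun*.

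The promoters of 2 FOS and 2 JUN genes that rose after stimulation are shown so that their sequences can be read beside the responses. RefSeq windows of GRCm38.p6 from 250 bases before to 50 after the start were on hand for 7 of the 8 members, *Fosl1* being the exception. That build differs from GRCm39, to which the reads were aligned. The 150 bases before the start are printed on the strand of the gene, with 3 motifs in capitals. These are TGACG (a core of the cAMP response element), TATAAA (the element that places the start of transcription) and TGACATCA (a variant of the cAMP response element known from *Jun*). All 3 motifs were chosen after the sequences were seen. *Fos* is shown from chr12:85473740-85473889 (+), *Fosb* from chr7:19310046-19310195 (-), *Junb* from chr8:84978749-84978898 (-) and *Jun* from chr4:95052223-95052372 (-).
Fos: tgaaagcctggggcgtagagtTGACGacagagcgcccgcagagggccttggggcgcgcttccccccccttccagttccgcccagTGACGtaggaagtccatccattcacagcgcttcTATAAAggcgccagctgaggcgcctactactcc
Fosb: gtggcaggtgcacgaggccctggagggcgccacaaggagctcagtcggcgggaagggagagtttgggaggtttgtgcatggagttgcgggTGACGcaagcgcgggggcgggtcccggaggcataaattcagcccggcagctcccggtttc
Junb: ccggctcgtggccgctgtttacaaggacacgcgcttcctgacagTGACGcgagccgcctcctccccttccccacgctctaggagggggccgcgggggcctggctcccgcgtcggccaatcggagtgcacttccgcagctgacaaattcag
Jun: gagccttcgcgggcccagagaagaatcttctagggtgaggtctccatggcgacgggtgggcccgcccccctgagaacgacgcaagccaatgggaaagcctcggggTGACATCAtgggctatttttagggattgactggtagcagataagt

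In these windows of 300 bases, searched on both strands, TGACG was present for *Fos*, *Fosb*, *Junb* and *Batf*, that is 4 of 7 members, against 20.8% of 32851 windows of all genes. *Fos* held it at -129 and -66 from the start, *Fosb* at -60, *Junb* at -106 and *Batf* at -98, and *Batf* did not respond. TATAAA was present for *Fos* at -33 and for *Junb* at 1, which is past the printed stretch, against 13.6% of all windows, and TGACATCA only for *Jun*, against 3.62%. The full element TGACGTCA, which contains TGACG, was found in none of the 7 windows and in 1.79% of all. The AP-1 sites TGAGTCA and TGACTCA were also in none of the 7 and in 5.2% of all windows. A CArG box, the site of SRF, was in none of the 7 and in 1.63% of all, and a CArG box with a GGAA core within 10 bases, the arrangement that ternary complex factors use, in 0.277% of all. The well-known CArG box of *Fos* lies upstream of this window. An NF-kappa B site was found for *Fos*, *Fosb* and *Fosl2* (11.2% of all windows), and the NFAT core GGAAA for *Jun* and *Batf* (61.3% of all).

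The next question was whether HZ and KO BMMCs mounted the same response. In both, the same 6 members rose past 2-fold, against 7.02% of all tested genes that rose in HZ and 3.73% in KO, and *Jund* and *Batf* stayed below the threshold. The fold changes were larger than in WT for nearly all members, most of all in HZ.

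*Fos* rose from 84 and 90 counts to 21368 and 19556 in HZ, which is 255-fold (log2 fold change 7.99 ± 0.06), and from 253 and 209 counts to 14356 and 14716 in KO, which is 81.3-fold (6.34 ± 0.05). *Fosb* rose 37.8-fold in HZ (5.24 ± 0.03) and 8.82-fold in KO (3.14 ± 0.03), against 4.38-fold in WT. *Jun* rose 26.4-fold in HZ (4.73 ± 0.03) and 5.94-fold in KO (2.57 ± 0.03). For *Junb*, the other strongly induced JUN gene, the folds were 14.4 in HZ and 14.3 in KO (3.84 ± 0.03 each). *Fosl2* likewise rose 10.2-fold in HZ (3.35 ± 0.03) and 9.90-fold in KO (3.31 ± 0.03). *Fosl1* rose 33.5-fold in HZ (5.05 ± 0.20), from 17 and 16 counts, and 4.38-fold in KO (2.13 ± 0.15). With limma on log2(FPKM + 1), which shrinks low values, the *Fosl1* change in HZ was 2.91. Each of these 12 changes had an adjusted p of 2.72e-17 or less in the edgeR test. *Jund* was at 0.50 ± 0.03 in HZ and 0.53 ± 0.03 in KO (adjusted p = 4.31e-20 and 7.29e-21), and *Batf* at -0.13 ± 0.07 and -0.10 ± 0.07 (adjusted p = 0.114 and 0.289).

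The differences between these responses were tested as interactions in the same edgeR model. The KO response was larger than the WT response for 6 members, against 9.27% of all tested genes with a difference in either direction, by 1.16 ± 0.08 for *Fos*, 1.01 ± 0.03 for *Fosb*, 0.79 ± 0.04 for *Jun*, 0.76 ± 0.03 for *Fosl2*, 0.73 ± 0.04 for *Junb* and 0.22 ± 0.04 for *Jund* on the log2 scale. *Fosl1* was at -0.42 ± 0.20 (adjusted p = 0.219) and *Batf* at -0.07 ± 0.10 (adjusted p = 0.786). The HZ response was larger than the WT response for 7 members, against 38.5% of all tested genes with a difference, with 3.11 ± 0.04 for *Fosb*, 2.95 ± 0.04 for *Jun*, 2.81 ± 0.10 for *Fos* and 2.51 ± 0.27 for *Fosl1* (0.99 for *Fosl1* on log2(FPKM + 1)). The remaining members were closer to WT, with 0.81 ± 0.03 for *Fosl2*, 0.74 ± 0.04 for *Junb* and 0.19 ± 0.04 for *Jund*. Both sets of differences use the same WT libraries and are therefore not independent of each other.

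**Figure D2:**
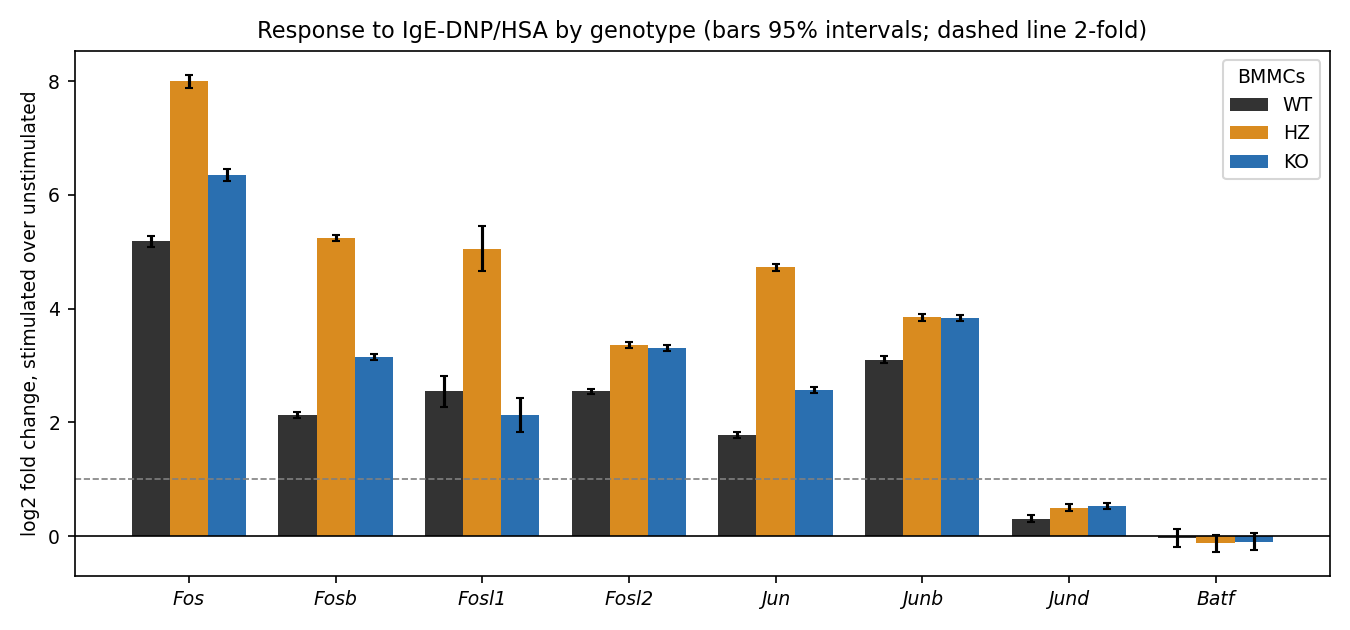
Log2 fold change of stimulated over unstimulated BMMCs for each member in WT, HZ and KO, with bars for 95% intervals and a dashed line at 2-fold. The HZ bars are the tallest for *Fos*, *Fosb*, *Fosl1* and *Jun*, HZ and KO are level for *Fosl2* and *Junb*, and *Jund* and *Batf* stay under the dashed line in all 3 genotypes.

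Unstimulated levels were then compared between genotypes. In unstimulated HZ cells 5 members were lower than in WT past 2-fold, *Fos*, *Fosb*, *Fosl1*, *Fosl2* and *Jun*, against 9.15% of tested genes that differed in either direction. In unstimulated KO cells *Fos* alone was lower past 2-fold, that is 1 of 8 members against 7.51% of tested genes, so the count of called members in KO was close to that background. Without a fold threshold all 8 members differed from WT in each genotype at an adjusted p below 0.05, 6 lower and 2 higher, where 44.6% of all tested genes did so in KO and 51.4% in HZ. In bulk RNA, fewer cells of a type that expresses a gene and less RNA per cell cannot be told apart.

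*Fosb* showed the largest gap in level between WT and HZ. It stood at 635 and 626 CPM in WT, 371 and 389 CPM in KO and 76.0 and 76.2 CPM in HZ libraries, so HZ was 8.29-fold lower than WT (log2 fold change -3.05 ± 0.03, adjusted p = 1.90e-52) and KO 1.66-fold lower (-0.73 ± 0.02, adjusted p = 7.90e-29). *Jun* followed the same order, with 429 and 420 CPM in WT, 349 and 349 CPM in KO and 69.5 and 73.7 CPM in HZ. Its change was -2.57 ± 0.03 in HZ (adjusted p = 3.45e-48) and -0.28 ± 0.03 in KO (adjusted p = 9.01e-13). *Fos* went from 15.7 and 14.3 CPM in WT to 6.75 and 5.89 CPM in KO and 2.42 and 2.73 CPM in HZ, which is -1.24 ± 0.07 for KO (adjusted p = 3.69e-19) and -2.54 ± 0.09 for HZ (adjusted p = 1.36e-27). In none of these 3 genes did the libraries of any 2 genotypes overlap.

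*Fosl1* rested on few reads, with 148 and 158 counts in WT, 105 and 115 in KO and 17 and 16 in HZ. It was at -3.19 ± 0.23 in HZ (adjusted p = 9.75e-17), or -1.59 with limma on log2(FPKM + 1), and at -0.57 ± 0.16 in KO (adjusted p = 0.00272). Exons of *Fosl1* overlap the opposite-strand gene *Ccdc85b*, and whether the counting used strand is not given in the sources used here, so reads of the pair cannot be told apart where they overlap. Unstimulated *Ccdc85b* stood at 414 and 419 counts for WT, 415 and 395 for HZ and 544 and 547 for KO. *Fosl2* was at 349 and 352 CPM in WT, 213 and 211 in KO and 162 and 164 in HZ (-0.72 ± 0.03 in KO and -1.10 ± 0.03 in HZ). *Junb* was lower in both, from 343 and 332 CPM in WT to 196 and 186 CPM in KO and 197 and 194 CPM in HZ (-0.82 ± 0.03 and -0.79 ± 0.03, under 2-fold). *Jund* and *Batf* went the other way in KO, each at 0.42 log2 above WT (adjusted p = 7.56e-17 and 4.68e-06), and *Batf* also in HZ, at 0.38 (adjusted p = 2.04e-05). In HZ, *Jund* was at 0.07 (adjusted p = 0.0407) with libraries that overlapped those of WT. An opposite-strand gene, *Gm11175*, also lies over *Jund* exons, and its counts were not analysed here.

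KO libraries were next set against HZ libraries, which asks whether the resting levels were ordered by the number of disrupted alleles. At rest 4 members, *Fos*, *Fosb*, *Fosl1* and *Jun*, were higher in KO than in HZ past 2-fold, against 3.36% of tested genes that differed. *Fosl1* differed by 2.62 ± 0.24, *Fosb* by 2.32 ± 0.03, *Jun* by 2.29 ± 0.03 and *Fos* by 1.30 ± 0.11 on the log2 scale, with adjusted p from 9.41e-47 for *Fosb* to 8.01e-13 for *Fosl1*. With limma on log2(FPKM + 1), *Fos* was at 0.89, under 2-fold, which left 3 members called, and *Fosl1* at 1.17. *Fosl2* was higher in KO by 0.38 ± 0.03 and *Jund* by 0.35 ± 0.03, both under 2-fold. *Junb* (-0.03, 95% interval -0.09 to 0.02, adjusted p = 0.351) and *Batf* (0.04, interval -0.11 to 0.18, adjusted p = 0.704) did not pass the test between KO and HZ. WT was highest, KO intermediate and HZ lowest for *Fos*, *Fosb*, *Fosl1*, *Fosl2* and *Jun*.

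The summed level of heat shock genes was lowest in resting HZ, as for the members named last, but highest in KO rather than WT. That of mast cell markers was highest in resting HZ and lowest in WT. Heat shock genes, which respond to handling and temperature, had a summed level of 2424 to 2459 CPM in unstimulated WT, 1660 to 1681 CPM in HZ and 2832 to 2847 CPM in KO libraries, and of 5929 to 6741 CPM after stimulation. Of the 8 heat shock genes, 4 rose in the WT response, 7 in HZ and 3 in KO, against 3.71%, 7.02% and 3.73% of all tested genes. In WT these were *Hspa1b* (5.45 ± 0.14), *Hspa1a* (4.91 ± 0.15), *Dnajb1* (2.89 ± 0.03) and *Hspa8* (1.06 ± 0.02). In KO they were *Hspa1a* (4.75 ± 0.13), *Hspa1b* (4.48 ± 0.11) and *Dnajb1* (2.90 ± 0.03). In resting HZ against WT, where 5.32% of all genes were lower and 3.83% higher, 1 was lower past 2-fold, *Dnajb1* (-2.31 ± 0.03, adjusted p = 6.16e-47), and 1 was higher, *Hspa1b* (1.04 ± 0.22). In resting KO, *Hspa1b* alone passed, at 1.32 ± 0.21, and *Dnajb1* was at -0.76 ± 0.03. Summed mast cell markers were 61176 and 62677 CPM in unstimulated HZ libraries against 51087 and 52129 CPM in WT and 55564 and 56702 CPM in KO. The part of heat shock or of culture composition in the resting differences was not tested.

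**Figure D3:**
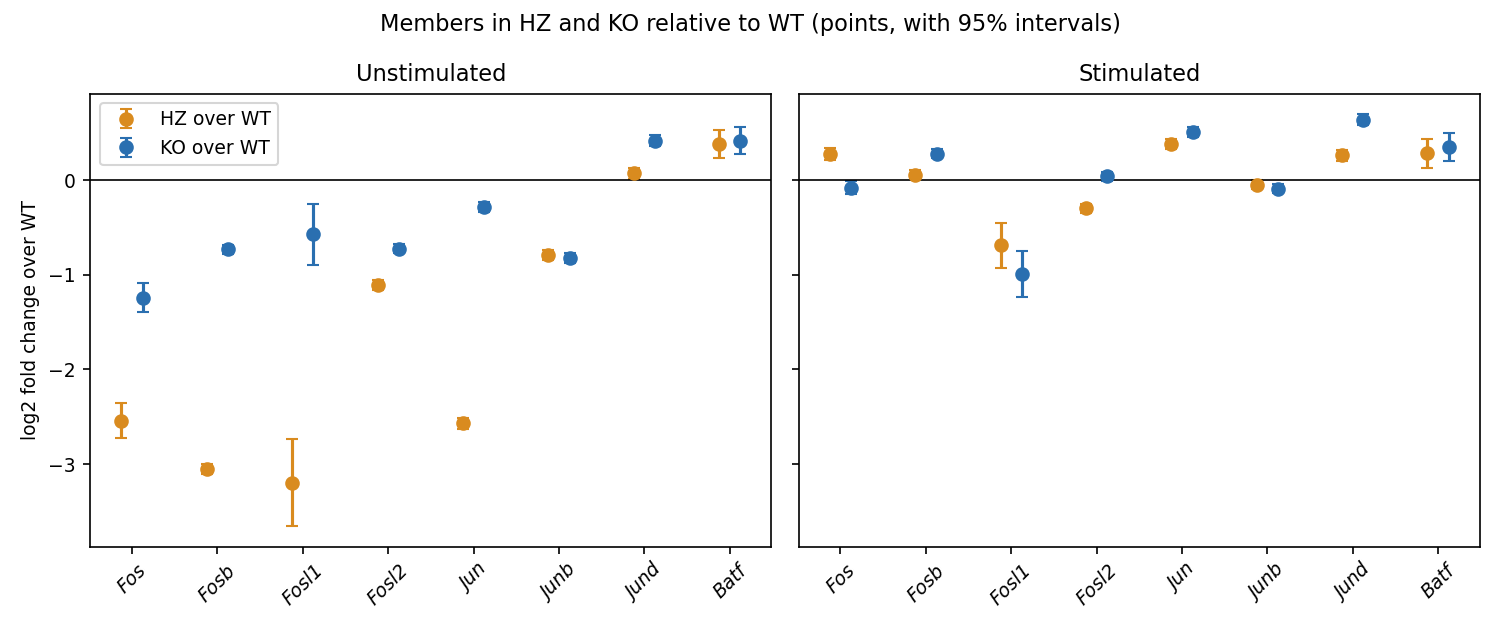
Log2 fold change of HZ and KO over WT for each member in unstimulated and stimulated BMMCs, with bars for 95% intervals. Unstimulated HZ points reach -3.05 for *Fosb* and -3.19 for *Fosl1*, and after stimulation every point except those of *Fosl1* lies within 0.64 of 0.

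After stimulation the genotypes came close. In stimulated KO cells 2 members passed an adjusted p of 0.05 and lay outside folds of 0.66 to 1.5, against 12.7% of tested genes. These were *Fosl1*, which was lower (13.3 and 13.1 CPM against 26.7 and 25.9 CPM in WT, -0.99 ± 0.12, adjusted p = 2.44e-09), and *Jund*, which was higher (1236 and 1218 CPM against 771 and 806 CPM, 0.64 ± 0.03, adjusted p = 1.43e-23). In stimulated HZ cells *Fosl1* alone passed, at 16.1 and 16.6 CPM (-0.69 ± 0.12, adjusted p = 5.91e-06), that is 1 of 8 members against 7.89% of tested genes. Between stimulated KO and HZ cells 0 members passed, against 5.32% of tested genes, in edgeR and in DESeq2 alike, although 5 had an adjusted p below 0.05 without the fold threshold, against 24.9% of tested genes, and 6 an unadjusted one, against 34.4%. *Fosl1* was thus below WT past the thresholds in HZ both before and after stimulation.

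Without the fold threshold 7 members differed from WT in stimulated KO cells and 6 in HZ, against 40.4% and 34.9% of tested genes. *Jun* was at 1868 and 1920 CPM in HZ and 2074 and 2071 CPM in KO against 1447 and 1465 CPM in WT after stimulation (0.38 ± 0.03 and 0.51 ± 0.03, adjusted p = 2.50e-17 and 2.65e-22). *Fosb* was at 3377 and 3328 CPM in KO against 2733 and 2794 CPM in WT (0.28 ± 0.02, adjusted p = 5.03e-14). *Fos* was at 516 and 511 CPM in KO (-0.08 ± 0.03, adjusted p = 0.0463) and at 651 and 661 CPM in HZ (0.27 ± 0.03, adjusted p = 1.47e-09), so the KO libraries stood just below WT and the HZ libraries above. *Junb* lay at 2760 and 2698 CPM in KO and 2780 and 2833 CPM in HZ, against 2823 and 2981 CPM in WT (-0.09 ± 0.03 and -0.05 ± 0.03). *Fosl2* was at 0.04 ± 0.02 in KO (adjusted p = 0.166) and at -0.30 ± 0.02 in HZ (adjusted p = 1.06e-14). *Batf* stayed above WT in both (0.35 ± 0.08 in KO and 0.28 ± 0.08 in HZ, adjusted p = 0.000161 and 0.00245).

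An interaction equals the stimulated difference from WT minus the resting one. For *Fos* in KO, the response difference of 1.16 was made of -0.08 after stimulation and -1.24 at rest, and for *Fosb* in HZ the 3.11 was made of 0.06 and -3.05. Measured as a gain in level, *Fos* rose by 528 CPM in WT, 654 CPM in HZ and 507 CPM in KO. *Junb* rose by 2564 CPM in WT, 2611 CPM in HZ and 2538 CPM in KO, and *Jun* by 1031, 1822 and 1723 CPM. These gains were not tested against each other.

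The make-up of the 2 branches was compared as FPKM. The FOS branch (*Fos*, *Fosb*, *Fosl1* and *Fosl2*) summed to 254 and 252 FPKM in unstimulated WT, 147 and 151 in KO and 48.1 and 48.5 in HZ libraries, and to 1159 to 1302 FPKM in the stimulated libraries of all genotypes. The JUN branch (*Jun*, *Junb* and *Jund*) summed to 613 and 591 FPKM in unstimulated WT, 557 and 565 in KO and 386 and 395 in HZ, and to 2039 to 2328 after stimulation. FOS transcripts therefore stood at 0.420 of JUN transcripts in resting WT, 0.266 in KO and 0.124 in HZ, and at 0.538 to 0.561 in the stimulated groups. In resting WT and KO, *Fosb* made up 73.8% and 74.3% of the FOS branch, whereas in HZ it made up 45.1% and *Fosl2* led with 51.5%. Stimulation raised the share of *Fos* from 3.14% to 19.9% in WT, from 2.73% to 23.6% in HZ and from 2.22% to 17.0% in KO. In the JUN branch, *Jund* led at rest with 41.1% in WT, 64.3% in HZ and 58.1% in KO, and *Junb* led after stimulation with 68.3%, 62.3% and 57.9%. The order of single members had 2 overlaps between neighbours, *Fosl2* with *Jun* in unstimulated HZ and *Junb* with *Fosb* in unstimulated KO.

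**Figure D4:**
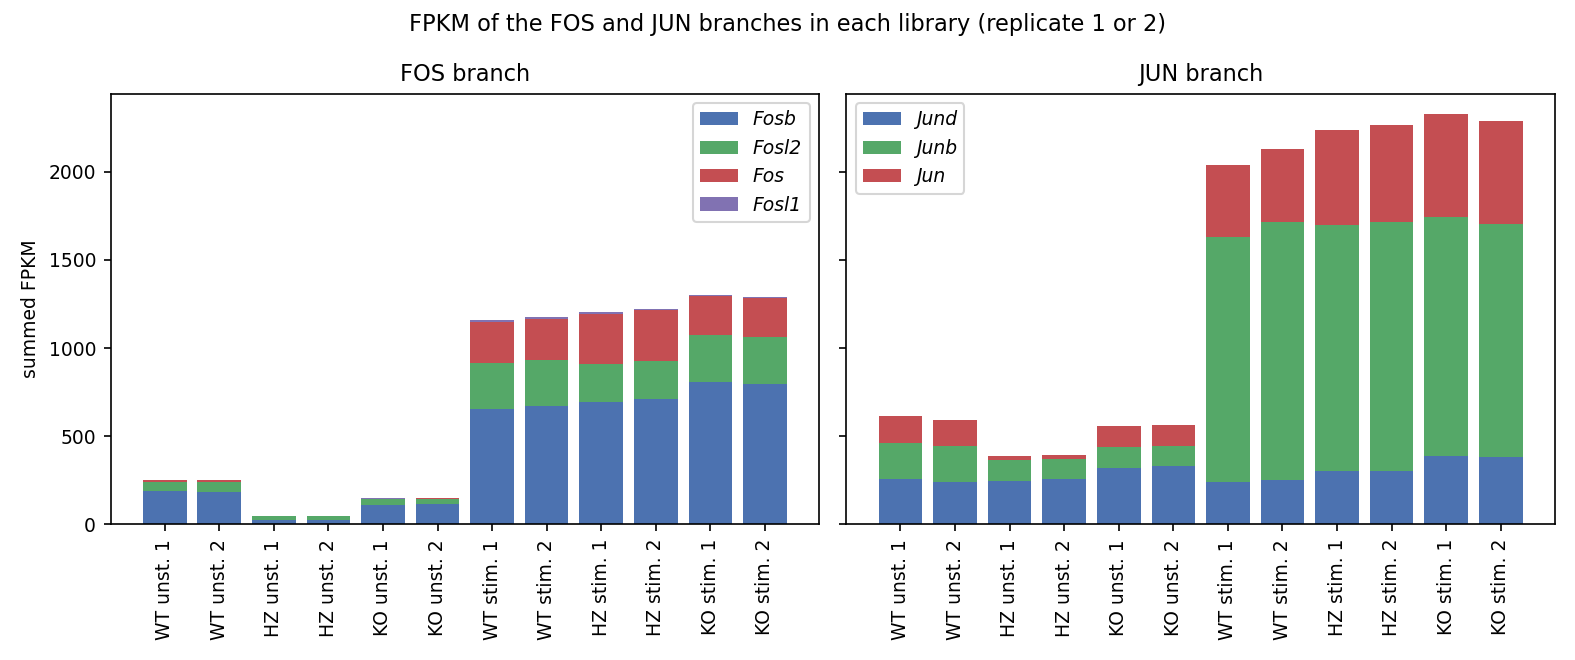
Summed FPKM of the FOS branch (left) and JUN branch (right) in each of the 12 libraries, stacked by gene. Unstimulated HZ libraries have the lowest FOS bars, at 48.1 and 48.5 FPKM, and *Junb* fills most of the JUN bars after stimulation.

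The other genes of the pathway were read from lists, whose choice is described under the methods. Among 25 tested basic leucine zipper factors outside the family, 6 rose and 1 fell in the WT response, beside 3.71% and 3.06% of all genes, with a median log2 change of 0.30 beside -0.01 for all genes. *Atf3*, a stress-induced partner of JUN, went from 1045 and 955 counts to 31394 and 31953 (5.18 ± 0.04, adjusted p = 4.70e-56), and *Nfil3* (2.78 ± 0.06), *Maff* (2.55 ± 0.11) and *Cebpb* (1.74 ± 0.04) also rose. In unstimulated HZ, *Atf3* stood at 114 and 93 counts (-3.26 ± 0.08, adjusted p = 9.40e-35), but in KO at 1394 and 1451 counts, or 0.41 ± 0.05 above WT. *Atf3* was thus low in HZ like *Fos* and *Jun*, and not low in KO. *Nfil3* was lower in HZ past 2-fold (-1.78 ± 0.08), and at -0.87 ± 0.07 in KO.

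Of 23 MAP kinase genes upstream of AP-1, 2 rose in WT and none fell, with a median of 0.01. *Map3k8*, the kinase TPL2 that feeds the ERK pathway, rose from 784 and 695 counts to 12804 and 12827 (4.31 ± 0.05, adjusted p = 3.82e-49), and *Map2k3*, a p38 activator, by 1.03 ± 0.03. No member of this list was called between KO and WT, at rest or after stimulation, and *Map3k8* was the only one lower past 2-fold in resting HZ (-1.41 ± 0.08). In resting KO *Map3k8* was just short of 2-fold, at -0.98 ± 0.07 (adjusted p = 1.94e-16). Among the ternary complex factors, SRF and its coactivators, 6 of 8 listed symbols were in the table, and 1 of them fell in WT, *Mrtfa*, an actin-regulated SRF coactivator (-1.05 ± 0.05, adjusted p = 2.88e-22). *Srf* was at 0.28 ± 0.05, *Elk1* at 0.36 ± 0.08, *Elk3* at -0.11 ± 0.08 and *Elk4* at -0.06 ± 0.06 in the WT response, none past the threshold. None of the 6 was called between KO and WT.

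Of 8 tested partners that bind composite sites beside AP-1, *Ets2* (1.34 ± 0.08) and *Ets1* (1.14 ± 0.11) rose in WT. *Ets1* was lower in KO than in WT at rest, with 175 and 132 counts against 457 and 411 (-1.60 ± 0.13, adjusted p = 3.24e-14), and after stimulation, with 221 and 252 counts against 843 and 825 (-1.75 ± 0.12, adjusted p = 8.04e-17). *Ets2* was lower past the threshold after stimulation (-0.79 ± 0.08, adjusted p = 1.38e-11). Of the 8 partners, 1 was lower in resting KO and 2 in stimulated KO, beside 4.87% and 7.22% of all genes. Against WT, 3 were lower in stimulated HZ, beside 4.33% of all genes, and 0 in resting HZ. Resting HZ had *Ets1* at 0.11 ± 0.12 and *Ets2* at -0.85 ± 0.09. Between stimulated KO and HZ, *Ets1* was at -0.66 ± 0.13 and *Ets2* at 0.05 ± 0.08.

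Textbook AP-1 targets were read in the same way. Of 16 tested, 12 rose in WT, 13 in HZ and 13 in KO, and none fell, against 3.71%, 7.02% and 3.73% of all tested genes that rose. Their median log2 change was 2.02 in WT, 2.19 in HZ and 2.45 in KO. *Tnf* rose from 211 and 236 counts to 128432 and 132579 in WT (9.38 ± 0.05, adjusted p = 3.91e-64), *Il13* by 5.88 ± 0.05 and *Il6* by 4.51 ± 0.03, all of them mast cell cytokines. *Csf2*, the gene of GM-CSF, had 0 counts in both unstimulated WT libraries and 694 and 778 after stimulation, which is at least 281-fold higher against a floor of 3 counts per library. The medians are the same with *Csf2* placed at its bound.

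In resting HZ, 3 of 16 targets were lower past 2-fold, *Ccnd1*, the gene of cyclin D1 (-2.13 ± 0.46), *Tnf* (-1.42 ± 0.10) and *Il13* (-1.29 ± 0.07). None was higher, beside 5.32% of all genes that were lower and 3.83% that were higher, and the median was -0.53. In resting KO, *Mt2* was higher (2.31 ± 0.07) and *Timp1*, a protease inhibitor, lower on few reads, from 11 and 17 in WT to 0 and 2 counts in KO libraries, and the median was -0.42, beside 2.64% of all genes that were higher and 4.87% that were lower. In stimulated KO, 2 were higher, *Plaur* (2.42 ± 0.09), the urokinase receptor, and *Mt2* (1.64 ± 0.06), a metallothionein, and 2 were lower, *Cd44* (-0.85 ± 0.06) and *Hmox1* (-0.79 ± 0.03), beside 5.44% of all genes that were higher and 7.22% that were lower. *Tnf* was at -0.37 ± 0.03 and *Il6* at 0.05 ± 0.03 in stimulated KO, both within the fold threshold. The KO response exceeded that of WT for 5 targets and fell short for 3, and the HZ response exceeded it for 10 and fell short for 2, beside 5.44% of all genes above and 3.83% below for KO, and 19.9% above and 18.6% below for HZ. These comparisons use the same libraries as those of the members.

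**Figure D5:**
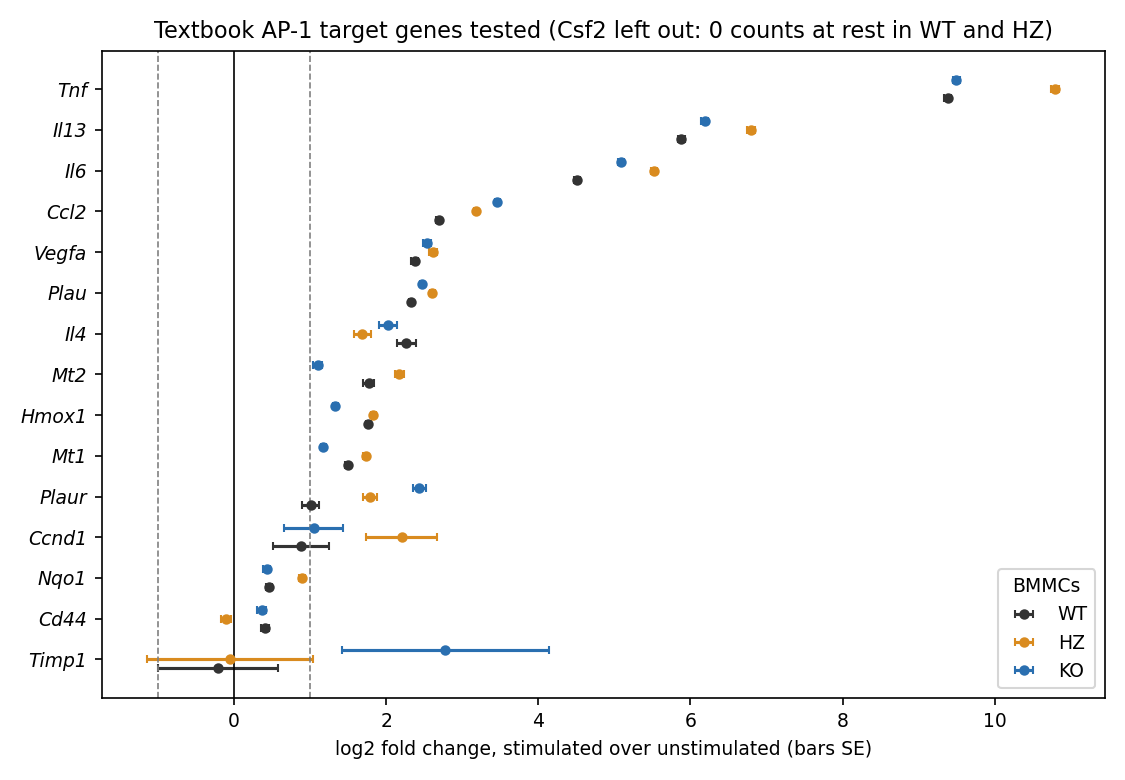
Log2 fold change of stimulated over unstimulated BMMCs for 15 tested textbook AP-1 targets in WT, HZ and KO, with bars for SE and dashed lines at 2-fold; *Csf2* is left out because its unstimulated libraries held 0 counts in WT and HZ. *Tnf*, *Il13* and *Il6* lie furthest right in all 3 genotypes, and *Timp1* has the widest bars.

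The genes most like each member over the 12 libraries were found by Pearson's r of log2(CPM + 1), which describes libraries that share groups and scaling. For *Fos* they were *Ier2*, an immediate early gene (r = 0.999), and *Tiparp* (0.999), and for *Junb* they were *Nfkbid* (0.999), an inhibitor of NF-kappa B, and *Ppp1r15a* (0.999), which acts in the integrated stress response. *Fosl2* was most like *Nedd9* (0.999) and *Nr4a3* (0.998), an inducible nuclear receptor. *Fosb* was most like *Hnrnpu* (0.999) and *Cd69* (0.995), an early activation marker of leukocytes, and *Jun* most like *Klf6* (0.995) and *Cd69* (0.995), so these 2 members shared a neighbour. *Fosl1* was most like the heat shock gene *Dnajb1* (0.995) and *Etf1* (0.995). *Jund* and *Batf*, which stayed under 2-fold with stimulation, had neighbours at lower r, *Vwa5a* (0.974) and *Unc13a* (0.972) for *Jund* and *Aldh9a1* (0.972) and *Sec22c* (0.970) for *Batf*.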

How the data were processed

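RNA-seq of 12 BMMC libraries was analysed in 6 groups of 2, taken from the sample titles. The authors deposited raw counts per gene, without normalization; per the labels, reads were processed with fastp, HISAT2 and HTSeq on GRCm39 (versions not given in the sources used here). The authors also deposited FPKM values, whose ratio to the counts showed scaling by gene length and library total. Replicates were not pooled.

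Counts were tested in R 4.3.3 with edgeR 4.0.16 (filterByExpr, TMM, 6 group means, glmQLFTest, two-sided, Benjamini-Hochberg over 12208 genes, prior count 0.125). Responses and resting contrasts were called at an adjusted p below 0.05 and 2-fold, stimulated contrasts at 1.5-fold or 0.66-fold, and interactions by adjusted p alone. The biological coefficient of variation was 4.01%. SE and 95% intervals come from this model. Replicates of each group differed by more than sampling noise, with chi-square over degrees of freedom of 2.95 to 5.51. Alternatives used DESeq2 1.42.0, limma 3.58.1 on log2(FPKM + 1) and log2(FPKM + 0.1), other scalings and filters, blocks and left-out libraries. Scripts were tested on simulated data.

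The members and gene lists were chosen with earlier results of these data known. Named genes are the members, *Elk4* and the 2 genes most like each member. From each list, up to 4 genes with the largest change were named among those called in the WT response. Up to 3 were named among those called in resting or stimulated KO against WT. Values of these genes in HZ were added after they were seen. So were *Elk1*, *Elk3*, *Srf*, *Hbb-bs*, *Hba-a1*, *Itga2b*, *Ccnd1*, *Cd44*, *Hmox1*, *Nfe2*, *Hspa1a*, *Hspa8*, *Mcpt8* and the genes that overlap members. *Bach2* (0.61 ± 0.13) and *Mcpt4* (0.74 ± 0.08) were called higher in stimulated KO than in WT and are named only here. No listed sex-linked gene was analysed here. Promoter windows came from RefSeq (GRCm38.p6), and overlapping exons from GENCODE for the same build.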

Additional observations from a re-analysis of the deposited data

Results flagged for a closer look

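The responses to IgE-DNP/HSA differed between genotypes for most members by the interaction test of edgeR, with n = 2 libraries a group. The KO minus WT difference of the log2 response was 1.16 for *Fos*, 1.01 for *Fosb*, 0.76 for *Fosl2*, 0.79 for *Jun*, 0.73 for *Junb* and 0.22 for *Jund*. The HZ minus WT difference was 2.81 for *Fos*, 3.11 for *Fosb*, 2.51 for *Fosl1*, 0.81 for *Fosl2*, 2.95 for *Jun*, 0.74 for *Junb* and 0.19 for *Jund*. All 13 were positive and rest on the same 4 WT libraries, but they are listed here because they passed. The differences of *Fosl1* in KO (-0.42) and of *Batf* in KO (-0.07) and HZ (-0.10) were negative and did not pass.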

How the results depend on the processing

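With 2 libraries a group, the counts of called members were the same with each single library left out (6 in each of the 3 responses, 1, 5 and 4 at rest in KO against WT, HZ against WT and KO against HZ, 2, 1 and 0 after stimulation in that order, and 6 and 7 for the KO and HZ response differences). Without a fold threshold the counts became 8 in resting KO and 8 in resting HZ, each set against WT, 7 and 6 in stimulated KO and HZ, and 5 between both stimulated mutants, beside 44.6%, 51.4%, 40.4%, 34.9% and 24.9% of all tested genes. The log2 change of *Jund* in the WT response was -0.00101 with library totals alone, -0.000787 with limma on log2(FPKM + 1), with or without the filter, and -0.000789 on log2(FPKM + 0.1), since both keep the scaling by library totals. With single libraries left out, the log2 change of *Batf* in the WT response ranged from -0.13 (without stimulated WT replicate 2) to 0.059 (without replicate 1), and its response difference from -0.16 to 0.030 for KO and from -0.19 to 0.0017 for HZ, the upper values without stimulated WT replicate 2. *Junb* in resting KO against HZ ranged from -0.068 to 0.00094, the latter without unstimulated KO replicate 2. *Fos* in resting KO against HZ fell to 0.89 with limma on log2(FPKM + 1), under 2-fold, and *Fosl1* passed in the KO minus WT response there (-0.48), while its HZ values shrank, to 2.91 for the response and -1.59 at rest against WT; a pseudocount of 1 compresses genes with few reads. No pairing by replicate number was visible: deviations of same-numbered libraries correlated at -0.05 to 0.07 over 9858 genes. Such values cannot show whether same-numbered libraries came from the same culture. A replicate block gave 6, 6 and 6 called members in the WT, HZ and KO responses, and changed no other count of called members. Depth limits *Fosl1* in HZ, where 16 and 17 counts stand behind the resting level.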

Other observations

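A few genes of the lists stood apart from the family. *Cebpa*, a myeloid basic leucine zipper factor, had 3 and 1 counts in unstimulated WT libraries, 29 and 20 in HZ and 35 and 31 in KO, so its level was low throughout. Stimulated libraries held 1 to 7 counts, so *Cebpa* passed the filter on low counts only through unstimulated HZ and KO. Its KO difference from WT (3.86 ± 0.86 on the log2 scale, adjusted p = 0.000182 in edgeR) is therefore a description and not independent support. *Nfe2*, a haematopoietic partner of small MAF proteins, fell in the WT response from 1734 and 1759 counts to 547 and 441 (-1.63 ± 0.07), opposite in direction to *Atf3*, *Nfil3*, *Maff* and *Cebpb*. *Hdc*, the enzyme of histamine synthesis, was the only mast cell marker of 13 that rose past 2-fold in WT (3.14 ± 0.04), and it was lower in KO at rest, with 635 and 606 counts against 4345 and 4259 in WT (-2.89 ± 0.05), and after stimulation (-1.87 ± 0.04). In resting HZ *Hdc* was at -0.21 ± 0.04 against WT. Stimulated KO was at -0.52 ± 0.04 against stimulated HZ, within the fold threshold, so stimulated HZ also lay below WT. *Lyz2*, a macrophage marker, was higher in unstimulated KO than in WT (1.35 ± 0.16), while the other 4 of 5 tested macrophage and monocyte markers did not pass and the median of the list was 0.11. In unstimulated HZ *Lyz2* was also higher than in WT (1.26 ± 0.16), *Fcgr1* was lower (-1.25 ± 0.54) and the median of the list was -0.93. Of 4 tested basophil markers, *Mcpt8* was higher in stimulated KO than in WT (0.95 ± 0.16), beside 5.44% of all genes, and 3 did not pass. *Mcpt8* was at -0.06 ± 0.15 between stimulated KO and HZ.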
